A study of Homo sapiens with 48 samples.

Results

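The interferon-stimulated genes are described here as 39 named human genes, of 60558 gene rows in the largest set of files, across the 48 RNA-seq libraries of the diffuse large B-cell lymphoma line U2932. The members are a set chosen by name, and all 39 had a row in the coculture files, 30 in the files of the knockout tumours and 37 in those of the mutant tumours. The study asked how loss of the ubiquitin ligase adaptor KLHL6, loss of NOTCH2 and expression of lymphoma-associated NOTCH2 variants bear on the transcriptome. For the coculture, U2932 cells that were WT or KLHL6-KO were sampled at 0, 3, 8 and 12 h of culture with OP9-DLL1, a mouse stromal line made to express DLL1, which activates NOTCH receptors (24 libraries). A set called knockout tumours below consists of xenografts labelled WT, KLHL6-KO, NOTCH2-KO and DKO (KLHL6-/-NOTCH2-/-), and the mutant tumours were xenografts of U2932 cells stably expressing NOTCH2(WT), S2156A, R2400* or Q2140*, with 12 libraries in each of these experiments and 3 libraries in every group. All tumours, those of the WT and NOTCH2(WT) groups included, grew in NSG mice given the lymphoma regimen CHOP (prednisone with cyclophosphamide, vincristine and doxorubicin) and were collected at a volume of 1 cm3. NSG mice lack mature T, B and NK cells but keep macrophages, stroma and endothelium of the mouse. Whether a knockout was a single clone, and which promoter drove the NOTCH2 variants, is not given in the sources used here.

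Type I interferons bind the receptor IFNAR1-IFNAR2, and the kinases TYK2 and JAK1 then signal through STAT2 and IRF9, subunits of the complex ISGF3, which binds the interferon-stimulated response element in the promoters of the genes described here. Interferon-gamma has a receptor of its own and induces an overlapping set of genes, IRF1 among them. The products degrade viral RNA (the OAS enzymes), bind viral RNA or nucleoprotein (the IFIT and MX proteins), attach or remove the ubiquitin-like protein ISG15, or feed back on the pathway, as USP18 does. Many of these genes are also expressed at a lower level in cells to which no interferon was added.

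To show the element that the group is known for, the core of the interferon-stimulated response element, spelled TTTC, then any 2 bases, then TTTC, was looked for on both strands of RefSeq promoter windows (GRCh38.p14, 250 bases before and 50 bases after the start of a gene). A window was found for 31 of the 39 members, and 18 of these (58.1%) held it, against 1255 of 35116 windows (3.57%) of all genes. The members are known targets, so the share describes the list and tests nothing. The stretches below run 5′ to 3′ on the strand of the gene and end at the base before its RefSeq start, except that of DTX3L, which runs 10 bases past it because the match straddles the start. Capitals mark the matches, and a match on the opposite strand reads GAAA, any 2 bases and GAAA. Overlapping matches are a single run of capitals, as in ISG15 and IFIH1. OAS3, PARP14 and DTX3L are shown because they fell in coculture, and IFI6, IFIH1 and ISG15 because they were higher in tumours of the Q2140* variant. IFI44L was picked after its values in those tumours were seen. It passed the filter for testing, given below, only through the Q2140* libraries, so its calls there are no support for a difference. Their stretches lie at chr12:112938321-112938473 (OAS3, plus strand), chr3:122680739-122680838 (PARP14, plus), chr3:122564238-122564347 (DTX3L, plus), chr1:27672193-27672358 (IFI6, minus), chr2:162318685-162318853 (IFIH1, minus), chr1:1013374-1013496 (ISG15, plus) and chr1:78620274-78620447 (IFI44L, plus).
OAS3: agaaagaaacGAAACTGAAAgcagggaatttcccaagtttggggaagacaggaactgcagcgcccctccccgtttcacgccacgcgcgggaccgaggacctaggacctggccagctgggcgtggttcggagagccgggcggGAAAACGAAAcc
PARP14: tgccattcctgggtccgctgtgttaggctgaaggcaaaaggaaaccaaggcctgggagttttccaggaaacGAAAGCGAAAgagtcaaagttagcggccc
DTX3L: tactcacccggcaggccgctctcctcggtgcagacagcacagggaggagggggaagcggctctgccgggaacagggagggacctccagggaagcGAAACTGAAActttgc
IFI6: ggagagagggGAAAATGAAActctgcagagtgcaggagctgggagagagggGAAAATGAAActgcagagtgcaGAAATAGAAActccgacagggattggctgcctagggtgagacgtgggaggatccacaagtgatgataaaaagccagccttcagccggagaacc
IFIH1: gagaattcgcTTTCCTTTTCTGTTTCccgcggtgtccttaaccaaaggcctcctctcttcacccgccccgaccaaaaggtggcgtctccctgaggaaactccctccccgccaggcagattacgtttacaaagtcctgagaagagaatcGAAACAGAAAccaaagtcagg
ISG15: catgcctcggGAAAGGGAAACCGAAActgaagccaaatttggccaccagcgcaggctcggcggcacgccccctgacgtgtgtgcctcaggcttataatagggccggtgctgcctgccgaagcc
IFI44L: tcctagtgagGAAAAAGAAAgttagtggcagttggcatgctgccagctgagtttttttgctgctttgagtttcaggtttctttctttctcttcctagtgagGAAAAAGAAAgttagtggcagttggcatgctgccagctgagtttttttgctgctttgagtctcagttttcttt
The windows of OAS1, PARP9, IRF1, IRF9, STAT2, UBE2L6, SP100, SP110, IFI35, SAMD9L, HERC6, XAF1 and CMPK2 held no match, which says only that these letters are not in them. The window of MX1 held 1 match, which lies after the start.

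A member was tested where it reached 10 normalised counts (reads divided by the size factor of the library) in at least 3 libraries of the experiment. That kept 29 members in coculture, while 30 passed in knockout tumours and 32 in mutant tumours. Below that limit in coculture lay OASL, MX1, IFIT1, IFI44, IFI44L, XAF1, HERC5, HERC6, CMPK2 and LY6E, with values from 0 to 12.2, and HERC5 and LY6E had 0 reads in all 24 libraries. No row of the knockout tumours has under 121 reads, and OASL, IFIT1, IFI44, IFI44L, IRF9, HERC5, XAF1, CMPK2 and LY6E have no row there. In the mutant tumours IRF9 and LY6E had no row, and OASL, IFIT1, IFI44, XAF1 and HERC5 stayed under the limit, with 0 to 10.8 normalised counts. Changes are log2 differences ± SE from limma on log2(value + 2), which understate the change of low genes, with p adjusted by Benjamini-Hochberg over all features tested and called under 0.05. Replicates are separate samples by their labels alone, so each p measures the spread between these samples.

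Libraries held 11.1 to 17.4 M reads (coculture), 3.71 to 15.2 M (knockout tumours) and 12.7 to 17.1 M (mutant tumours). B-cell markers were abundant in every group, with a sum over 9 genes of at least 39162 normalised counts. KLHL6 was lower in KLHL6-KO cells of the coculture (2381 ± 177 against 5389 ± 747 at 0 h, SD, n = 3). In the knockout tumours the level of KLHL6 goes against the labels KLHL6-KO and DKO: it was 4372 ± 775 in the libraries labelled WT, 6536 ± 440 in those labelled KLHL6-KO, 7433 ± 898 in those labelled NOTCH2-KO and 4574 ± 902 in those labelled DKO. NOTCH2 was 420, 850 and 909 in those labelled WT and lowest in those labelled NOTCH2-KO (329, 448 and 292), which overlap WT replicate 1. It was 466 ± 23.5 in those labelled KLHL6-KO, and in those labelled DKO (612, 562 and 531) it lay within the WT range. Directions drawn between these tumours therefore rest on the labels, and the groups are written as labelled. Replicate 1 of the WT tumours stood apart (correlation of log2 values with the other WT tumours 0.982 and 0.984, which correlated with each other at 0.995), and replicate 3 of the DKO tumours was the library with 3.71 M reads. NOTCH2 in the mutant tumours was 15858 ± 567 (NOTCH2(WT)), 16650 ± 1050 (S2156A), 26466 ± 2748 (R2400*) and 59619 ± 4181 (Q2140*), so for R2400* and Q2140* the level of NOTCH2 and its variant cannot be told apart, while S2156A and NOTCH2(WT) overlapped.

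Many interferon-stimulated genes were lower by 3 h of coculture in both genotypes. In WT cells 20 of 29 members fell at 3 h, 19 at 8 h and 17 at 12 h, where 27.6%, 28.2% and 25.9% of all 15032 features tested were called lower. The members called higher were IRF1 and IRF9 at each time, against 27.2%, 28% and 27.1% of all features. The median member changed by -0.42, -0.41 and -0.43 on the log2 scale, beside a median over all features of -0.01 at 3 h and 0.00 at 8 and 12 h. In KLHL6-KO cells 12, 13 and 15 members fell (19.6%, 18.6% and 20% of all features) and 2, 2 and 3 rose (19.5%, 19.2% and 20.6%), with medians of -0.25, -0.35 and -0.35. OAS2, PARP14, PARP9, IFIT2, UBE2L6 and TRIM22 fell in all 6 comparisons with 0 h, and IRF7 and SAMD9 were called in none. The 3 comparisons within a genotype share the 0 h libraries.

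The OAS enzymes make 2′-5′ oligoadenylates that activate RNase L. The genes OAS1, OAS3 and OAS2 lie side by side on chromosome 12. OAS2 stood at 686, 630 and 530 normalised counts in the WT libraries at 0 h, at 342, 345 and 350 at 3 h, at 342, 288 and 362 at 8 h and at 400, 383 and 376 at 12 h. All later libraries lay below all 0 h libraries, and most of the fall had occurred by 3 h (-0.82 ± 0.09, adjusted p = 1.68e-09). OAS2 in KLHL6-KO cells began at 447, 438 and 402 and stood at 293, 300 and 292 at 3 h (-0.54 ± 0.09, adjusted p = 1.05e-05).

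OAS1 had fallen at 3 h in WT cells (-0.45 ± 0.12, adjusted p = 0.00151) and was lower again at 8 h, while OAS3 was first called lower at 8 h. OAS1 went from 312, 291 and 281 in WT cells at 0 h to 190, 243 and 213 at 3 h, 95.7, 120 and 118 at 8 h and 125, 98.5 and 105 at 12 h (a 12 h change of -1.42 ± 0.12, adjusted p = 6.36e-12). OAS3 was 802, 716 and 602 at 0 h and still 644, 669 and 684 at 3 h, then 320, 279 and 401 at 8 h and 306, 273 and 287 at 12 h (-1.28 ± 0.11, adjusted p = 2.6e-11). The groups at 0 and 3 h overlap for OAS3 and those at 0 and 12 h do not. In KLHL6-KO cells OAS3 was 452, 386 and 396 at 0 h, 451, 475 and 378 at 3 h and 201, 201 and 173 at 12 h (-1.10 ± 0.11, adjusted p = 1.07e-09), and it too was not called at 3 h.

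**Figure D1:**
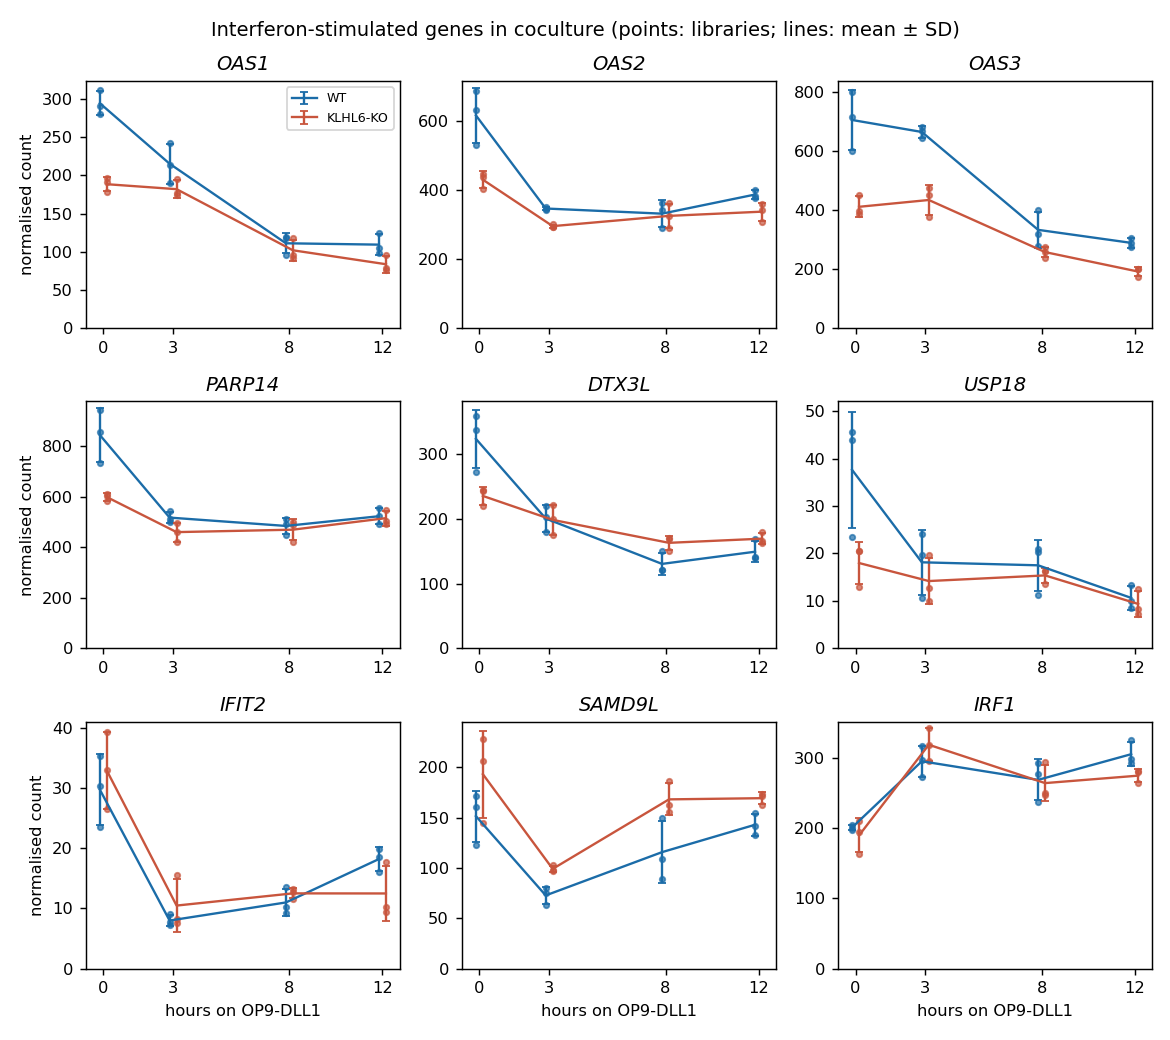
Normalised counts of 9 interferon-stimulated genes against hours on OP9-DLL1 in WT (blue) and KLHL6-KO (red) cells; points are libraries and lines join means with SD (n = 3). OAS2, PARP14 and IFIT2 are down by 3 h, OAS3 by 8 h, SAMD9L dips at 3 h and IRF1 rises from 197, 205 and 200 to 296, 316 and 273 in WT cells.

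PARP9 and DTX3L form a complex of an ADP-ribosyltransferase and a ubiquitin ligase, and PARP14 is a related ADP-ribosyltransferase. The 3 genes lie on chromosome 3, and PARP9 and DTX3L overlap on opposite strands. The library kit was directional, but whether strand was used in counting is not given in the sources used here, so their reads may be shared. DTX3L was 338, 359 and 273 normalised counts in WT cells at 0 h, 179, 219 and 203 at 3 h, 120, 121 and 149 at 8 h and 139, 168 and 140 at 12 h. The 0 h libraries were the highest, without overlap at any later time (8 h change -1.29 ± 0.11, adjusted p = 9.65e-12). PARP14 went from 943, 854 and 732 to 498, 541 and 511 at 3 h and 511, 450 and 490 at 8 h (8 h change -0.79 ± 0.08, adjusted p = 4.91e-10). PARP9 went from 155, 166 and 123 to 57.4, 63.9 and 63.4 at 8 h (-1.23 ± 0.14, adjusted p = 3.02e-09). The falls of KLHL6-KO cells at 8 h were -0.53 ± 0.11 (DTX3L, adjusted p = 0.000313), -0.35 ± 0.08 (PARP14, adjusted p = 0.000796) and -0.63 ± 0.14 (PARP9, adjusted p = 0.000403).

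The ISG15 system showed falls of different size. UBE2L6, the conjugating enzyme for ISG15, was 706, 731 and 712 normalised counts in WT cells at 0 h, 565, 601 and 577 at 3 h, 408, 447 and 429 at 8 h and 432, 428 and 456 at 12 h. It had the smallest adjusted p of all members at 8 h in WT cells (-0.74 ± 0.06, 4.83e-12) and in KLHL6-KO cells (-0.64 ± 0.06, 4.56e-10). USP18, the protease that removes ISG15 and restrains IFNAR2, was lower in level and spread more, from 45.5, 23.5 and 43.9 at 0 h to 8.6, 9.96 and 13.4 at 12 h in WT cells (-1.61 ± 0.30, adjusted p = 3.16e-05). ISG15 itself fell in WT cells at 8 and 12 h, from 65.4, 65.4 and 86.8 to 27.9, 45.4 and 40.1 at 12 h (-0.92 ± 0.21, adjusted p = 0.000531). ISG15 of KLHL6-KO cells passed the test at no time.

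Some members dipped at 3 h and came back. SAMD9L, a cytoplasmic restriction factor, was 172, 160 and 123 in WT cells at 0 h, 75, 63.3 and 80.5 at 3 h and 155, 133 and 142 at 12 h. In KLHL6-KO cells it was 228, 207 and 145, then 103, 97.9 and 97.2, then 171, 163 and 174. The 3 h libraries were below those of 0 h in both genotypes (-1.03 ± 0.15, adjusted p = 8.94e-07, and -0.92 ± 0.15, adjusted p = 1.13e-05), and the 12 h value was not called in either. The nuclear body proteins SP110 and SP100 and the scramblase PLSCR1 had the same course in WT cells, with falls at 3 h of -0.74 ± 0.09 (SP110, adjusted p = 2.23e-08), -0.30 ± 0.07 (SP100, 0.000295) and -0.64 ± 0.08 (PLSCR1, 3.48e-08) and no call at 12 h. IFIT2, which binds AU-rich RNA, fell from 30.3, 23.5 and 35.3 to 7.69, 7.26 and 9.05 at 3 h in WT cells (-1.65 ± 0.26, adjusted p = 2.11e-06) and stood at 16.1, 19.9 and 18.6 at 12 h, at low counts throughout.

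The transcription factors moved apart. IRF1, an early activator that interferon-gamma and NF-kB induce, was 197, 205 and 200 in WT cells at 0 h, 296, 316 and 273 at 3 h, 236, 293 and 276 at 8 h and 325, 299 and 292 at 12 h. Its later libraries lay above all 0 h libraries (3 h change 0.55 ± 0.10, adjusted p = 8.66e-06), and in KLHL6-KO cells it went from 163, 195 and 210 to 295, 318 and 342 at 3 h (0.75 ± 0.10, adjusted p = 9.45e-08). IRF9, the DNA-binding subunit of ISGF3, rose at low counts from 12.3, 19.2 and 21 to 75.2, 44.3 and 52.7 at 12 h in WT cells (1.60 ± 0.24, adjusted p = 7.56e-07), and it overlaps the read-through gene AL136295.5 on the same strand, so its reads may be shared. STAT2, the other subunit named for this complex, fell at 3 and 8 h in both genotypes and was not called at 12 h. IRF7, which amplifies interferon production, ranged from 29.4 to 48.1 over all 24 libraries and was called at no time.

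**Figure D2:**
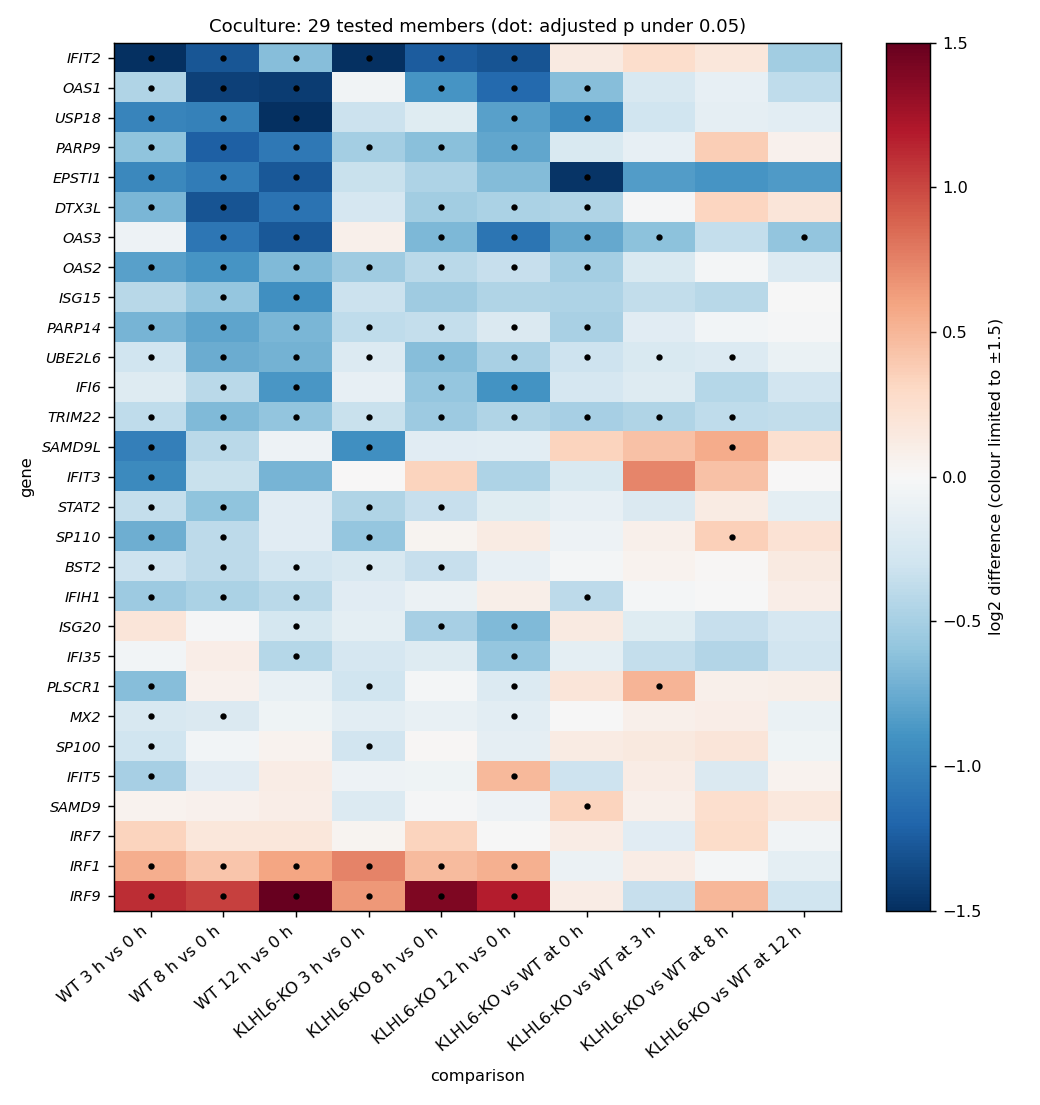
Log2 differences of the 29 tested members (rows) in 10 coculture comparisons (columns), blue lower and red higher, with a dot where the adjusted p was under 0.05. In the 6 comparisons with 0 h blue prevails for most members, IRF1 and IRF9 are red in all 6, IRF7 is red in 5 without a dot and IFIT5 is red with a dot in KLHL6-KO at 12 h; in the 4 comparisons between genotypes most dots are at 0 h.

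KLHL6-KO cells had lower levels of part of the group already at 0 h. Whether the 0 h libraries had any contact with OP9-DLL1 is not given in the sources used here. At 0 h 10 of 29 members were lower (12.5% of all features) and SAMD9 was higher (13.7%), with a median of -0.23 beside 0.00 over all features. The lower members were OAS1, OAS2, OAS3, PARP14, DTX3L, UBE2L6, USP18, TRIM22, EPSTI1 and the RNA sensor IFIH1. OAS3 differed most clearly (802, 716 and 602 in WT cells against 452, 386 and 396, -0.77 ± 0.11, adjusted p = 4.05e-06). OAS1 was at 178, 196 and 192 in KLHL6-KO cells, below the 3 WT libraries given above (-0.64 ± 0.12, adjusted p = 0.000146), and PARP14 at 610, 601 and 582 (-0.49 ± 0.08, adjusted p = 3.68e-05). EPSTI1, which is induced by interferon and by contact with stroma, was low in both (19.9, 29.6 and 16.2 against 3.67, 9.81 and 6.85, -1.47 ± 0.36, adjusted p = 0.00274). It did not rise in this coculture. In the 6 comparisons with 0 h its log2 changes ran from -1.27 to -0.34, with 3 called lower and 0 higher. The call of USP18 (-0.96 ± 0.30, adjusted p = 0.0167) ended without WT 0 h replicate 1 or 3 or KLHL6-KO 0 h replicate 1 (adjusted p = 0.097, 0.062 and 0.097).

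Fewer members were called between the genotypes at the later times, as were fewer of all features. At 3 h KLHL6-KO was lower for 3 members (4% of all features) and higher for 1 (3.82%), at 8 h lower for 2 (2.32%) and higher for 2 (2.02%), and at 12 h lower for 1 (2%) and higher for 0 (1.4%). OAS3 differed by -0.62 ± 0.11 at 3 h (adjusted p = 0.00024) and by -0.59 ± 0.11 at 12 h (adjusted p = 0.000636). PLSCR1 was higher in KLHL6-KO at 3 h, with 270, 308 and 279 against 213, 180 and 205 (0.52 ± 0.08, adjusted p = 4.45e-05). Single libraries set these counts: without WT 3 h replicate 2 or KLHL6-KO 3 h replicate 3 there were 2 calls at 3 h, without WT 8 h replicate 1 or KLHL6-KO 8 h replicate 1 there was 1 at 8 h, without WT 8 h replicate 2 there were 2 and without KLHL6-KO 8 h replicate 3 there were 0. At 12 h there were 3 without WT 12 h replicate 2 and 2 without KLHL6-KO 12 h replicate 2. A joint test of genotype by time called DTX3L, PARP14, PLSCR1 and OAS2, all with a mean term above 0 (12.4% of all features called in either direction). The count was 2 without WT 0 h replicate 1 or 2, WT 3 h replicate 2 or KLHL6-KO 3 h replicate 2, and 7 without WT 8 h replicate 3. For DTX3L, PARP14 and OAS2 the WT level was higher at 0 h and fell further, and it overlapped that of KLHL6-KO at 8 or 12 h.

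Stroma markers moved with time in the same libraries. The sum over 15 stroma markers was 40.2 to 101 normalised counts at 0 h and 186 to 681 at 3, 8 and 12 h. None of the markers was at 0 in all 24 libraries, and the highest sum was that of WT 12 h replicate 1. Without that library 18 members were called at 12 h in WT cells in place of 19. The B-cell sum was 63139 to 79564 in all 24 libraries. Of 12 macrophage markers C1QA, C1QB, C1QC, CD163 and FCGR3A were at 0 throughout. So were VWF, KDR and CDH5 of 6 endothelial markers, and CD2 and CD3G of 9 T and NK cell markers. The other markers of these lists were detected at low counts, and their sums moved with time too. In WT cells the macrophage sum was 46.7 to 57.8 at 0 h and 25.9 to 33.2 at 3 h. The endothelial sum was 10.4 to 12.4 at 0 h and 3.71 to 4.43 at 12 h. The T and NK cell sum was 6.64 to 19.1 and 4.45 to 5.53 at these times. The part of stroma RNA in the falls was not tested, and in bulk RNA fewer cells of a type and less RNA per cell cannot be told apart.

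Genes of the rest of the interferon pathway were called in both directions in coculture, and the shares of all features given above are repeated beside their counts. Of 21 interferon ligand genes 18 were at 0 in all 24 libraries and the highest value of any was 2.09 normalised counts, so none was tested. Of 9 receptors and kinases, 2 rose and 1 fell in WT cells at 3 h (27.2% and 27.6% of all features), and 6 rose and 0 fell in KLHL6-KO cells at 3 h (19.5% and 19.6%). JAK2, a kinase of the interferon-gamma receptor, rose from 236 ± 10.4 to 596 ± 54.9 in KLHL6-KO cells at 12 h (1.33 log2 units, adjusted p = 1.3e-10). Of 15 nucleic acid sensing genes 9 fell and 2 rose in WT cells at 3 h. The transcription factor IRF5 was 358 ± 17.2 at 0 h and 136 ± 16.5 at 8 h (-1.38, adjusted p = 4.3e-13). Among 21 other interferon-stimulated genes 9 fell and 5 rose in WT cells at 3 h and 10 fell and 2 rose at 12 h (25.9% and 27.1% of all features), where ZNFX1 rose from 464 ± 32.2 to 1014 ± 60.9 (1.12, adjusted p = 2.4e-16). Of 9 genes that lean to interferon-gamma 6 fell and 0 rose in WT cells at 3 h, with NLRC5, the activator of MHC class I genes, at 454 ± 29.6 at 0 h and 227 ± 4.98 at 3 h (-0.99, adjusted p = 1.1e-10).

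In the tumours labelled KLHL6-KO and DKO most of the members called against WT were higher, and in those labelled NOTCH2-KO the calls went both ways. In the tumours labelled KLHL6-KO 8 of 30 members were higher and 1 lower (8.44% and 9.02% of all 14005 features), and in those labelled NOTCH2-KO 8 were higher and 4 lower (16.2% and 14.5%), with 7 and 6 by edgeR and 5 and 4 with those groups alone. In those labelled DKO 9 were higher and 1 lower (5.5% and 3.86%). The medians were 0.21, 0.04 and 0.17, beside 0.00 over all features, and the 3 comparisons share the WT libraries. OAS1, MX2, SAMD9L and IFI35 were called higher in all 3, and no member was called lower in all 3. As the KLHL6 transcript goes against the labels here, each direction is that between labelled groups.

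OAS1 was 299, 237 and 255 normalised counts in the WT tumours and 466, 420 and 491 in those labelled KLHL6-KO. It was 516, 439 and 517 in those labelled NOTCH2-KO and 407, 452 and 455 in those labelled DKO. The WT libraries lay below all others, with log2 differences of 0.80 ± 0.11, 0.89 ± 0.11 and 0.73 ± 0.11 (adjusted p = 0.000232, 3.59e-05 and 0.00152). OAS3 behaved differently, with 785, 767 and 786 in WT, 1252, 1356 and 1401 in labelled KLHL6-KO, 817, 752 and 815 in labelled NOTCH2-KO and 1016, 926 and 1192 in labelled DKO. It was higher than in WT in labelled KLHL6-KO (0.77 ± 0.09, adjusted p = 5.44e-05) and labelled DKO (0.41 ± 0.09, adjusted p = 0.0128), and overlapped WT in labelled NOTCH2-KO. OAS2 was 312, 386 and 386 in WT and 522, 496 and 507 in labelled KLHL6-KO (0.50 ± 0.11, adjusted p = 0.00628), and it was not called in labelled NOTCH2-KO (adjusted p = 0.23) or labelled DKO (adjusted p = 0.053).

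The MX GTPases trap viral nucleoprotein. MX1 was 188, 170 and 160 in WT, 203, 175 and 154 in labelled KLHL6-KO, 149, 91.5 and 150 in labelled NOTCH2-KO and 241, 396 and 452 in labelled DKO. The labelled DKO libraries were the highest, without overlap with any other group, and were above WT (1.02 ± 0.21, adjusted p = 0.00899), labelled KLHL6-KO (0.99 ± 0.21, adjusted p = 0.00657) and labelled NOTCH2-KO (1.45 ± 0.21, adjusted p = 0.000406). Without DKO tumour replicate 3 the difference from WT was 0.84 (adjusted p = 0.061). MX2 was 392, 406 and 364 in WT, 550, 481 and 517 in labelled KLHL6-KO, 780, 678 and 747 in labelled NOTCH2-KO and 519, 820 and 635 in labelled DKO. All 9 libraries of the labelled knockouts were above WT, by 0.41 ± 0.13 (adjusted p = 0.037), 0.92 ± 0.13 (adjusted p = 0.000101) and 0.74 ± 0.13 (adjusted p = 0.00306). The MX2 call in labelled KLHL6-KO ended without any of its libraries or WT tumour replicate 2 or 3 (adjusted p = 0.051 to 0.13). MX1 had stood at 0 to 6.22 normalised counts in the coculture libraries, a series normalised separately.

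Other members led single comparisons. The scramblase PLSCR1 was 265, 350 and 363 in WT and 541, 491 and 541 in labelled KLHL6-KO (0.70 ± 0.14, adjusted p = 0.00315), and IRF7 27.2, 42 and 48.9 against 89.9, 78.5 and 76.8 (1.05 ± 0.23, adjusted p = 0.00528). EPSTI1 was the member lower there, with 155, 128 and 111 against 89.9, 85.2 and 59.3 (-0.75 ± 0.17, adjusted p = 0.00781, and 0.052 without KLHL6-KO tumour replicate 3). BST2, the tether of budding virions, was 327, 240 and 233 in WT and 530, 499 and 543 in labelled NOTCH2-KO (0.99 ± 0.15, adjusted p = 0.000176). STAT2 was 449, 740 and 814 in WT and 1001, 1132 and 1149 in labelled NOTCH2-KO (0.75 ± 0.17, adjusted p = 0.00344). PARP9 was 401, 557 and 585 in WT, and lower in labelled NOTCH2-KO at 294, 340 and 359 (-0.62 ± 0.13, adjusted p = 0.00257), and IFIT5 was lower there as well (158, 158 and 140 against 96.5, 92.4 and 101, -0.64 ± 0.14, adjusted p = 0.00262).

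**Figure D3:**
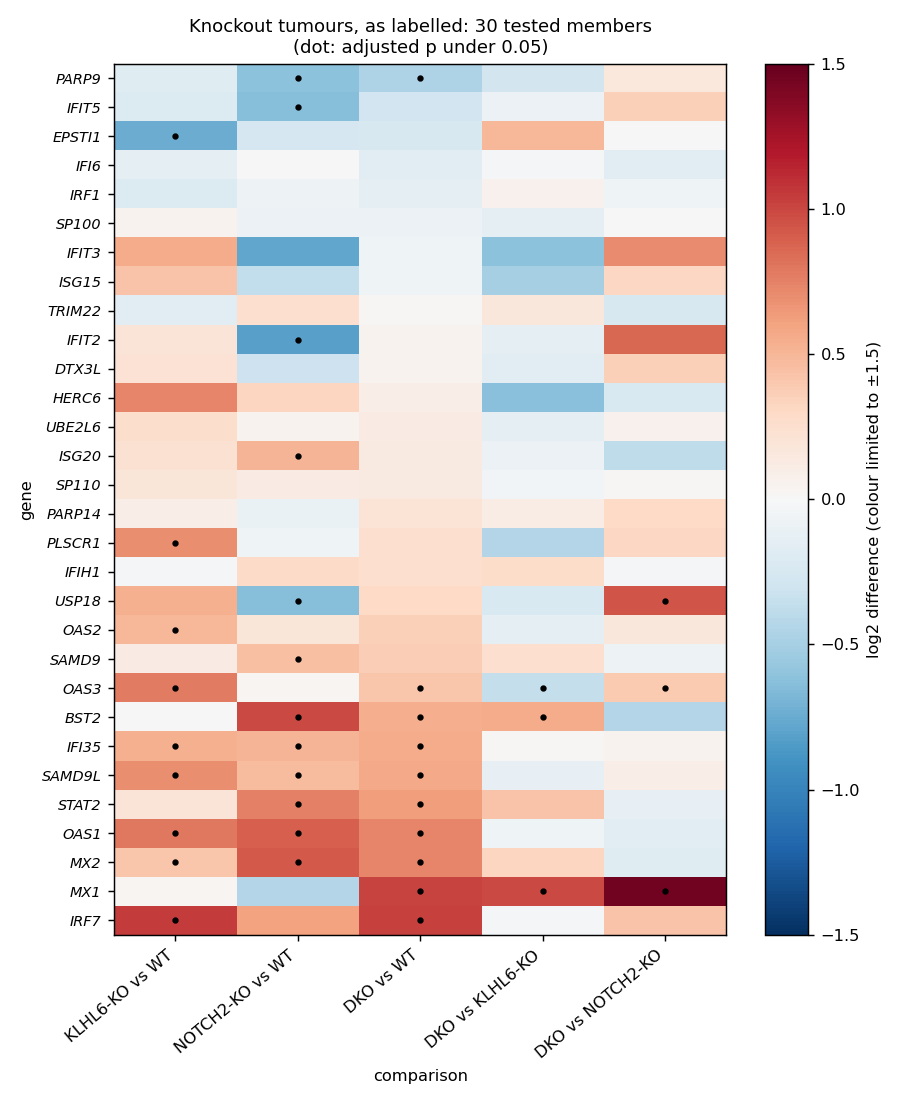
Log2 differences of the 30 tested members (rows) in the 5 pairwise comparisons of the knockout tumours (columns, groups as labelled), with a dot where the adjusted p was under 0.05. OAS1, MX2, SAMD9L and IFI35 are red with a dot in the 3 comparisons with WT, and MX1 in those of labelled DKO.

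The libraries that stand apart changed how many members were called. Without WT tumour replicate 1, 15 members were called in labelled KLHL6-KO in place of 9, all 9 among them, and SAMD9L lost its call in labelled NOTCH2-KO (0.30, adjusted p = 0.07). Without NOTCH2-KO tumour replicate 2 there were 7 calls in labelled NOTCH2-KO in place of 12. The calls of IFI35 in all 3 comparisons ended without single libraries, WT tumour replicate 2 in each case (adjusted p = 0.076 to 0.095). Without DKO tumour replicate 3, 2 members (OAS1 and MX2) were called in labelled DKO against WT in place of 10, and without DKO tumour replicate 2 there were 5. With both WT replicate 1 and DKO replicate 3 left out, an alternative chosen after the data were seen, 15 members were called in labelled KLHL6-KO, and STAT2, IRF7 and SAMD9L lost their calls in labelled DKO (adjusted p = 0.15, 0.076 and 0.091). Between labelled DKO and labelled KLHL6-KO 2 members were higher and 1 lower (6.25% and 4.51% of all features), and between labelled DKO and labelled NOTCH2-KO 3 were higher and 0 lower (3.52% and 3.29%). The first count was 1 without KLHL6-KO tumour replicate 2 or 3 or DKO tumour replicate 2. The second was 1 without NOTCH2-KO tumour replicate 1 or 2 or DKO tumour replicate 1 or 3, and 7 without DKO tumour replicate 2. The interaction of the labelled losses called OAS1 and MX2 below and MX1 above 0 (10.8% of all features in either direction), and 7 members without WT tumour replicate 1. The OAS1 libraries of labelled DKO overlapped those of both labelled single knockouts.

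Markers of other cell types differed between these tumours too. The sum of the 4 T and NK cell markers with a row (of 9) was 171 to 178 in WT, 75.5 to 81.4 in labelled KLHL6-KO, 227 to 242 in labelled NOTCH2-KO and 207 to 275 in labelled DKO, and none of the 4 was at 0 in all libraries. The sum of 7 stroma markers (of 15) was 255 to 292 in WT, 289 to 453 in labelled KLHL6-KO, 481 to 532 in labelled NOTCH2-KO and 233 to 336 in labelled DKO. The B-cell sum was 39162 to 49384 in WT and 56081 to 66938 in labelled NOTCH2-KO. The host has no mature T and NK cells, and what carried these transcripts was not tested, nor was their part, or that of mouse reads aligned to the human genome, in the member values. No interferon ligand has a row in these files. Of 9 receptors and kinases 1 was higher and 1 lower in labelled KLHL6-KO (8.44% and 9.02% of all features). SOCS3, a feedback inhibitor of JAK kinases, was lower in labelled NOTCH2-KO, at 263 ± 129 in WT and 54 ± 19.3 there. Of 15 nucleic acid sensing genes 5 were higher and 0 lower in labelled KLHL6-KO and 6 higher and 3 lower in labelled NOTCH2-KO (16.2% and 14.5% of all features), where the kinase IKBKE was 913 ± 108 against 445 ± 26.8 (1.03, adjusted p = 9.7e-05). Of 20 other interferon-stimulated genes 10 were higher and 2 lower in labelled NOTCH2-KO, with SAMHD1, a dNTP hydrolase, at 1070 ± 55.5 against 509 ± 55.3 (1.07, adjusted p = 3.4e-05). Of 11 genes that lean to interferon-gamma 2 were higher and 3 lower there.

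Tumours of the Q2140* variant had the most calls against NOTCH2(WT) among the 3 variants, in both directions. Of 32 members 10 were higher and 5 lower in Q2140* (9.72% and 10.8% of all 15354 features). IFI44L, among the 10 higher, passed the filter only through the Q2140* libraries. In S2156A 5 were higher and 3 lower (7.14% and 8.06%), and in R2400* 4 were higher and 0 lower (3.73% and 4.32%). The medians were 0.12, 0.00 and 0.05, beside 0.00 over all features, and the 3 comparisons share the NOTCH2(WT) libraries. OAS1 was the member called in all 3, and higher in each: 479, 488 and 489 normalised counts in NOTCH2(WT), 564, 627 and 585 in S2156A, 655, 654 and 651 in R2400* and 598, 640 and 746 in Q2140*. All 9 variant libraries were above the NOTCH2(WT) libraries, by 0.28 ± 0.07 (adjusted p = 0.00742, and 0.064 without S2156A tumour replicate 2), 0.43 ± 0.07 (adjusted p = 0.000316) and 0.44 ± 0.07 (adjusted p = 8.6e-05).

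The PARP9-DTX3L complex and PARP14 were lower in Q2140* than in each other group. DTX3L was 914, 782 and 878 in NOTCH2(WT), 905, 854 and 896 in S2156A, 754, 856 and 782 in R2400* and 534, 543 and 544 in Q2140* (-0.66 ± 0.07 against NOTCH2(WT), adjusted p = 7.97e-08). PARP9 was 711, 630 and 681 in NOTCH2(WT) and 426, 405 and 442 in Q2140* (-0.66 ± 0.07, adjusted p = 1.01e-07). PARP14 was 863, 783 and 810 in NOTCH2(WT) and 597, 590 and 613 in Q2140* (-0.45 ± 0.06, adjusted p = 9.63e-06). No Q2140* library overlapped those of another group for these 3 genes. Against R2400* the differences were -0.56 ± 0.07 (DTX3L, adjusted p = 1.59e-06), -0.53 ± 0.07 (PARP9, 3.95e-06) and -0.35 ± 0.06 (PARP14, 0.000283). SAMD9 and IFIT5 were also lower in Q2140* than in NOTCH2(WT), by -0.27 ± 0.06 (SAMD9, adjusted p = 0.00306) and -0.42 ± 0.13 (IFIT5, adjusted p = 0.0178).

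SP100 and IFIH1 had the smallest adjusted p among the members higher in Q2140* than in NOTCH2(WT). SP100, the nuclear body antigen, was 850, 860 and 829 in NOTCH2(WT), 889, 901 and 930 in S2156A, 999, 893 and 881 in R2400* and 1278, 1276 and 1317 in Q2140* (0.61 ± 0.06 against NOTCH2(WT), adjusted p = 4.7e-08). IFIH1, the sensor MDA5 of long double-stranded RNA, was 315, 328 and 364 in NOTCH2(WT), 295, 296 and 298 in S2156A, 387, 379 and 349 in R2400* and 500, 540 and 492 in Q2140* (0.60 ± 0.08, adjusted p = 3.11e-06). Both were above all other libraries of the experiment in Q2140*. ISG20, a 3′-5′ exonuclease, went from 1130, 1173 and 1098 to 1434, 1591 and 1729 (0.48 ± 0.06, adjusted p = 4.24e-06). USP18 and IFI6 followed at lower counts, with 9.27, 11.2 and 13.2 against 23, 19.8 and 38.4 for USP18 (1.09 ± 0.26, adjusted p = 0.00386) and 63.2, 65.7 and 53.6 against 92.1, 83 and 112 for IFI6 (0.63 ± 0.16, adjusted p = 0.0047). IFI44L, whose upstream stretch is printed above, was 3.37, 3.46 and 2.82 against 12.1, 12.8 and 20.3 (1.68 ± 0.44, adjusted p = 0.00684), a member outside the 10 with the smallest p and picked after its values were seen. Over all mutant tumours its median was 3.41, and it passed the filter only through the Q2140* libraries, where it was high. Its calls in the comparisons with Q2140* were favoured by that filter and are no support for a difference. Replicate 3 of Q2140* was the highest of its group for USP18, IFI6 and IFI44L, and likewise for MX1, OAS1, OAS3 and ISG15.

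**Figure D4:**
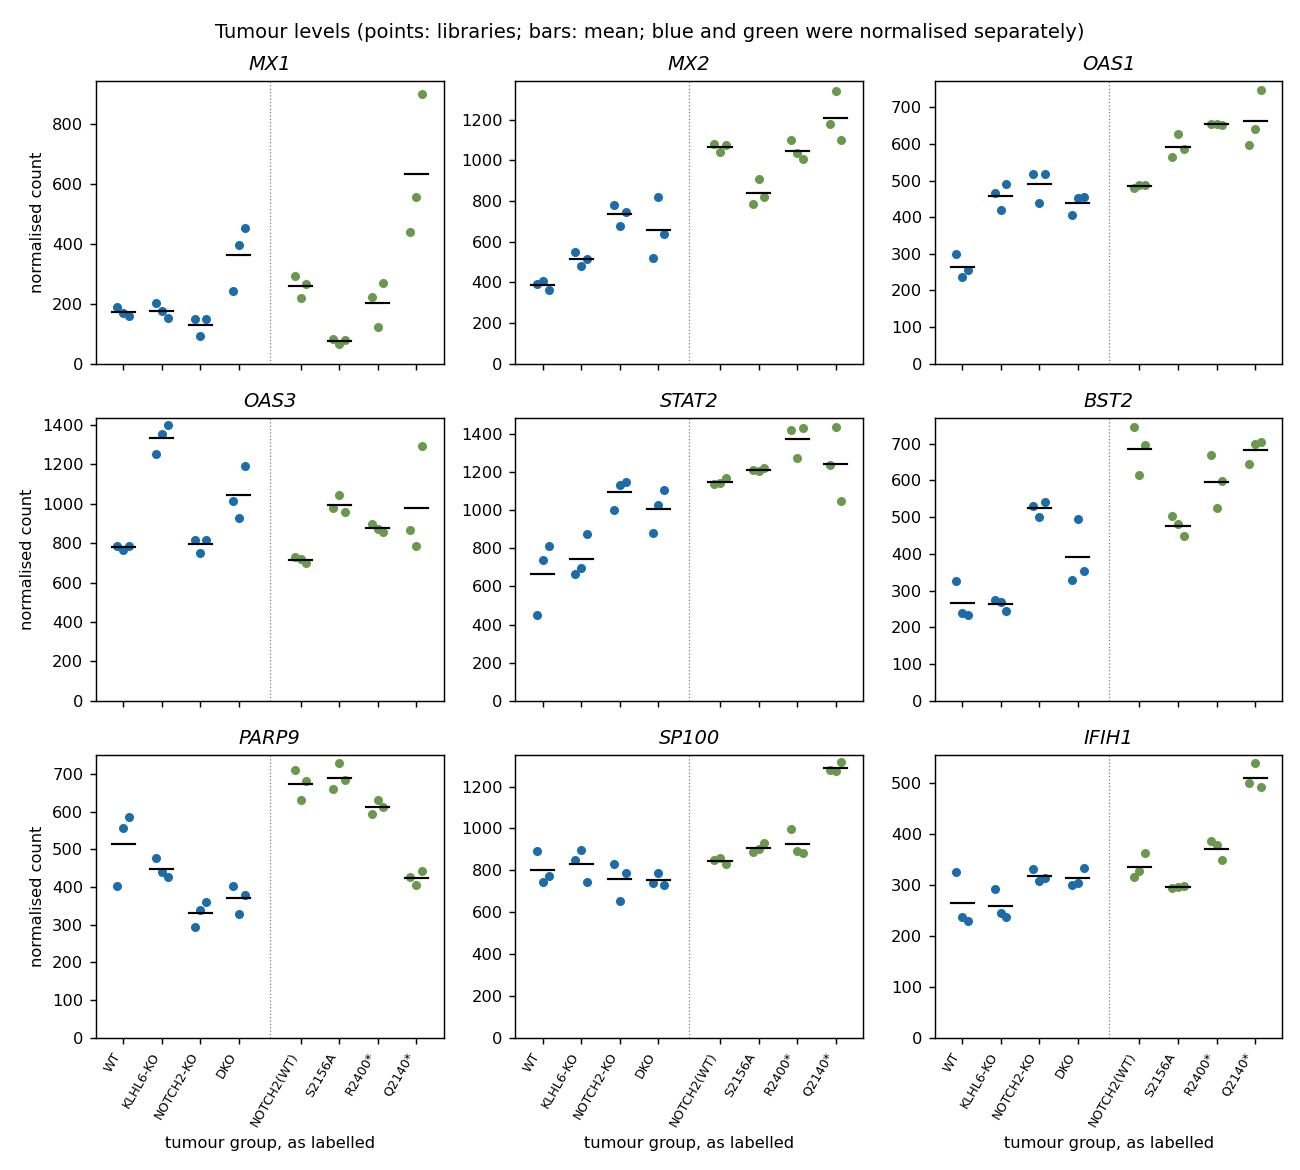
Normalised counts of 9 members in each tumour library (points) with group means (bars), the knockout experiment in blue with its groups as labelled and the mutant experiment in green, each normalised separately. MX1 runs from 66.9 in S2156A to 901 in Q2140*, and SP100 and IFIH1 in Q2140* lie above the other mutant tumours.

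MX1 varied widely between the mutant tumours. It was 293, 219 and 264 in NOTCH2(WT), 81, 66.9 and 80.2 in S2156A, 223, 121 and 267 in R2400* and 439, 556 and 901 in Q2140*. The S2156A libraries were the lowest and the Q2140* libraries the highest, and NOTCH2(WT) and R2400* overlapped. MX1 was lower in S2156A than in NOTCH2(WT) by -1.74 ± 0.33 (adjusted p = 0.00735) and than in Q2140* by -2.96 ± 0.33 (adjusted p = 0.000154). It was higher in Q2140* than in R2400* by 1.63 ± 0.33 (adjusted p = 0.00935, and 0.092 when those groups alone were fitted). S2156A against R2400* gave -1.33 ± 0.33 (adjusted p = 0.06). The sum of 8 T and NK cell markers (of 9, none at 0 in all libraries of the experiment) followed the same order of groups, with 163 to 171 in S2156A, 232 to 271 in R2400*, 312 to 322 in NOTCH2(WT) and 393 to 455 in Q2140*. CD8A was 115 ± 8.91 in NOTCH2(WT) and 276 ± 42.8 in Q2140*. The difference in CD8A was larger than that in the sum. By group means the sum of the other markers of this list was therefore lower in Q2140* than in NOTCH2(WT). The higher sum in Q2140* than in NOTCH2(WT) thus rested on CD8A. The order was not particular to these markers. The sum of 6 endothelial markers had medians of 41.2 in S2156A, 64.6 in R2400*, 72.4 in NOTCH2(WT) and 78 in Q2140*, with overlap among the last 3 groups. The stroma and macrophage sums did not have this order, with medians of 549 and 411 in S2156A against 483 and 314 in NOTCH2(WT). The part of these transcripts, and of the NOTCH2 level, in the MX1 values was not tested.

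MX2 and BST2 were lower in S2156A than in every other group. MX2 was 1081, 1043 and 1077 in NOTCH2(WT), 787, 907 and 818 in S2156A, 1101, 1034 and 1008 in R2400* and 1178, 1341 and 1099 in Q2140*. The S2156A libraries did not overlap the rest (-0.35 ± 0.07 against NOTCH2(WT), adjusted p = 0.00051). BST2 was 745, 616 and 696 in NOTCH2(WT), 503, 481 and 448 in S2156A, 668, 524 and 598 in R2400* and 645, 698 and 706 in Q2140* (-0.52 ± 0.08 against NOTCH2(WT), adjusted p = 4.55e-05). Against R2400* the MX2 call ended without S2156A tumour replicate 1 or R2400* tumour replicate 1 (adjusted p = 0.058 and 0.055), and the BST2 call without any library but R2400* tumour replicate 2 (adjusted p = 0.05 to 0.19). IFIT2 went the other way at low counts, from 17.7, 15.6 and 15 in NOTCH2(WT) to 32.6, 28.7 and 39.1 in S2156A (0.96 ± 0.24, adjusted p = 0.00543) and 37.7, 34.7 and 21.2 in R2400* (0.84 ± 0.24, adjusted p = 0.026). The IFIT2 call in R2400* ended without any library of those groups other than R2400* tumour replicate 3 (adjusted p = 0.056 to 0.15). OAS3 was called higher in S2156A (729, 718 and 702 against 978, 1045 and 957, 0.47 ± 0.14, adjusted p = 0.0457), a call that ended without any 1 of the 6 libraries (adjusted p = 0.087 to 0.13), with edgeR (0.057) and with no filter (0.14). The count of calls in S2156A was 4 without S2156A tumour replicate 2 and 5 without S2156A tumour replicate 1 or NOTCH2(WT) tumour replicate 2. That in R2400* was 1 without NOTCH2(WT) tumour replicate 2 or 3 or R2400* tumour replicate 1, and 2 without NOTCH2(WT) tumour replicate 1 or R2400* tumour replicate 3.

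**Figure D5:**
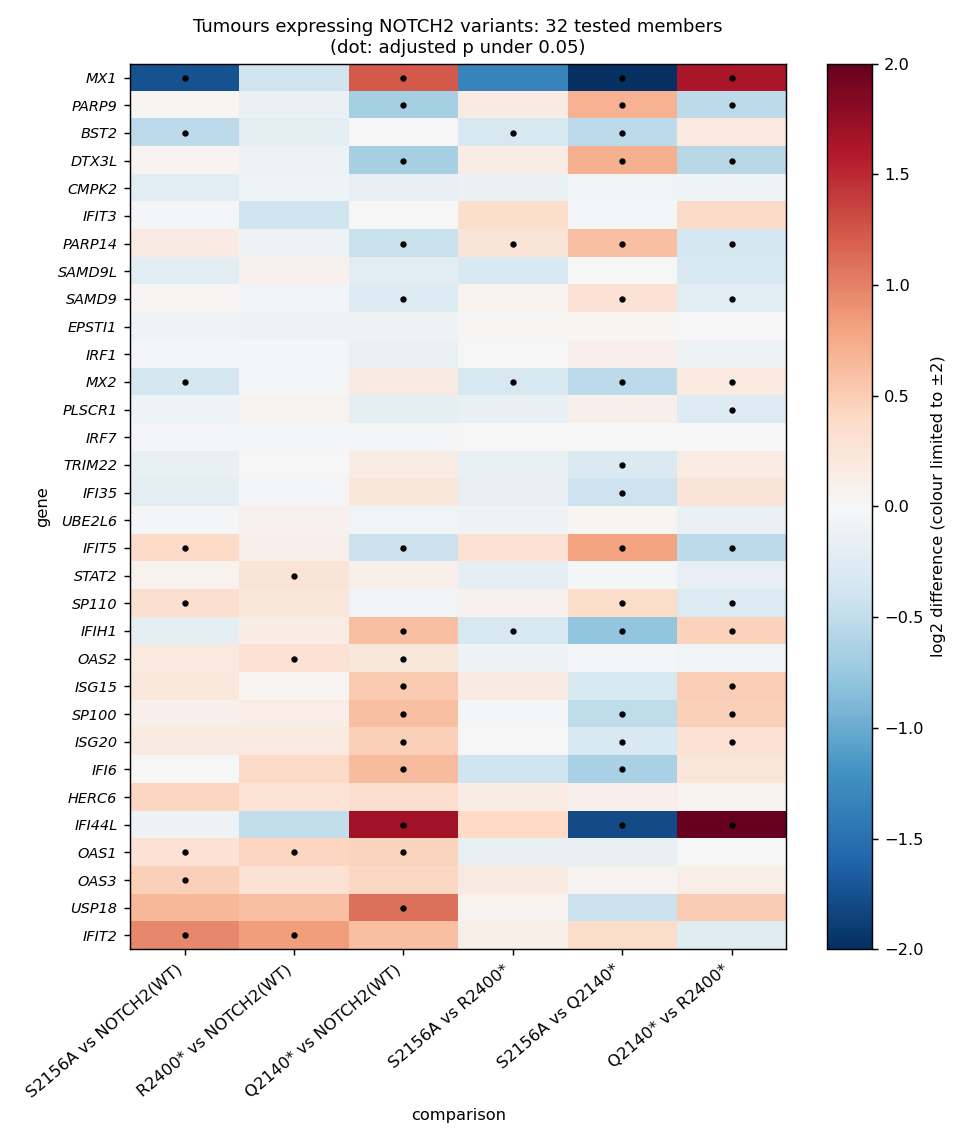
Log2 differences of the 32 tested members (rows) in the 6 pairwise comparisons of the mutant tumours (columns), with a dot where the adjusted p was under 0.05. PARP9, DTX3L and PARP14 are blue, and SP100, IFIH1 and IFI44L red, in Q2140* against NOTCH2(WT) and against R2400*. IFI44L passed the filter only through its Q2140* libraries. MX1 has the darkest blue in S2156A against Q2140*.

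Between the variants, S2156A had 6 members higher and 10 lower than Q2140* (15.2% and 15.4% of all features), Q2140* had 7 higher and 7 lower than R2400* (9.48% and 9.46%), and S2156A had 1 higher and 3 lower than R2400* (1.93% and 2.83%). The last count was 0 without S2156A tumour replicate 1 and 1 without S2156A tumour replicate 2 or 3 or R2400* tumour replicate 1. IFI44L, which passed the filter only through its Q2140* libraries, is among the 10 lower in S2156A and the 7 higher in Q2140*. Its calls were favoured by that filter. IFIT5 was higher in S2156A than in Q2140*, with 131, 128 and 124 against 74.6, 72.1 and 69.4 (0.81 ± 0.13, adjusted p = 1.73e-05). Members called in none of the 6 pairs were SAMD9L, IRF1, UBE2L6, EPSTI1, IFIT3, IRF7, HERC6 and CMPK2, with log2 differences from -0.40 to 0.43.

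Of the interferon ligands 10 had a row in the mutant tumours, and the highest value of any was 5.57 normalised counts (IFNG). Of 9 receptors and kinases 0 were higher and 2 lower in Q2140* than in NOTCH2(WT), among them JAK2 (613 ± 11.8 against 763 ± 29.4, -0.32, adjusted p = 0.00039). SOCS1 and SOCS3, which both inhibit JAK kinases, were 161 ± 16.3 and 109 ± 28.8 in Q2140* against 347 ± 26.4 and 539 ± 53.9 in S2156A (log2 differences of S2156A from Q2140* 1.10 and 2.32, adjusted p = 3e-09 and 7e-07). Of 15 nucleic acid sensing genes 1 was higher and 1 lower in Q2140* than in NOTCH2(WT) (9.72% and 10.8% of all features), of 22 other interferon-stimulated genes 6 were higher and 2 lower, and of 12 genes that lean to interferon-gamma 1 was higher and 4 lower. The helicase HELZ2 was among the other interferon-stimulated genes that were higher (561 ± 16.3 against 391 ± 13.9, 0.52, adjusted p = 1.6e-05). IRF8, a B-cell and myeloid transcription factor on the list that leans to interferon-gamma, was 5891 ± 349 in Q2140* against 3794 ± 49.4 in S2156A (log2 difference of S2156A from Q2140* -0.63, adjusted p = 2.8e-10). That is a comparison other than the one counted above, in which most called genes of its list were lower in Q2140*.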

How the data were processed

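RNA-seq of U2932 cells was taken from 48 deposited files, 3 libraries in each of 16 groups. The authors used STAR, SAMtools and DESeq2 with GRCh38, per the submitters' processing notes. Counter, annotation, strand setting and versions: not given in the sources used here. Each deposited value is a signal, the count of a gene over the size factor of its library, and all values in each library were whole multiples of a single step within 0.02 steps, which gave the reads and depth, and experiments were normalised separately. Rows were matched by Ensembl identifier or symbol to GENCODE 29, older symbols through RefSeq synonyms.

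From these values log2(value + 2) was fitted with limma 3.58.1 (R 4.3.3, trend, robust) over all libraries of an experiment with a coefficient per group, for features with at least 10 in at least 3 libraries, in 23 comparisons. The deposited signal was also tested as recovered reads with edgeR 4.0.16. Alternatives were pseudocounts 0.5 and 8, no filter, TMM scaling, a replicate block, the compared groups alone and each library left out. The fit was checked on simulated data. Comparisons name up to 10 called members with the smallest adjusted p, and up to 3 genes of each other list and experiment. The members and lists were chosen with earlier results of these data known. Replicates differed beyond sampling noise (chi-square over degrees of freedom 1.36 to 61.4), so none was counted as a second sequencing of another library. The check cannot show that they are separate samples, which rests on the labels. Results on 1 further list of pathway genes are not reported here.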

Additional observations from a re-analysis of the deposited data

Results flagged for a closer look

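In coculture the change with time differed between WT and KLHL6-KO cells for 4 of 29 members (13.8%, near the 12.4% of all features called) by the joint limma test of genotype by time, and the mean of the 3 terms (KLHL6-KO change minus WT change, log2 ± SE) is given for each. It was 0.61 ± 0.13 for DTX3L (adjusted p = 0.0044), 0.41 ± 0.09 for PARP14 (adjusted p = 0.014), 0.36 ± 0.10 for OAS2 (adjusted p = 0.047) and 0.05 ± 0.09 for PLSCR1 (adjusted p = 0.02). DTX3L kept its call without each library in turn. The call of PARP14 ended without WT 0 h replicate 1 or 2 (adjusted p = 0.083 and 0.051), that of PLSCR1 without WT 3 h replicate 2 or KLHL6-KO 3 h replicate 2 (0.095 and 0.09), and that of OAS2 without most single libraries (0.05 to 0.17). For PLSCR1 the terms differ between times rather than in their mean.

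In the knockout tumours the joint effect of both labelled losses differed from the sum of the single ones for 3 of 30 members (10%, near the 10.8% of all features called). The interaction was -0.96 ± 0.16 for OAS1 (adjusted p = 0.0012), 1.42 ± 0.30 for MX1 (adjusted p = 0.0077) and -0.59 ± 0.18 for MX2 (adjusted p = 0.046). OAS1 and MX1 kept their calls in every alternative run, and MX2 lost its call with edgeR (0.052), with a replicate block (0.054), with both libraries that stand apart left out (0.058) and in most leave-one-out fits (0.053 to 0.12). The level of KLHL6 goes against the labels KLHL6-KO and DKO of these tumours.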

How the results depend on the processing

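Of 167 named member differences none reversed under any alternative run. Pseudocounts 0.5 and 8 ended 0 calls, TMM scaling 1, edgeR on recovered reads 4, no filter 8, and fitting the compared groups alone 14 of 160. Leaving out 1 library ended the call in 161 of 1089 runs, and leaving out both libraries that stand apart ended 5 of 38. Deviations of same-numbered libraries correlated from -0.09 to 0.21 in coculture, -0.19 to 0.22 in the knockout tumours and -0.07 to 0.03 in the mutant tumours. The medians were 0.06, -0.01 and -0.01, and in coculture 18 of 84 pairs were over 0.1. Replicate numbers thus carried weak shared variation in coculture, which the main fit left out. With a replicate block 884 features were higher and 930 lower at 3 h (KLHL6-KO against WT), in place of 574 and 601. With a replicate block 3 named calls ended (MX2 in the interaction, OAS3 in S2156A and STAT2 in R2400* against NOTCH2(WT), adjusted p = 0.054, 0.054 and 0.069) and 2 counts of called members moved by over 1.5 times, KLHL6-KO against WT at 12 h to 3 and DKO against KLHL6-KO tumours to 5. With the compared groups alone the count was 7 at 3 h and 2 at 8 h (KLHL6-KO against WT), 3 (DKO against WT), 5 (DKO against KLHL6-KO), 6 (DKO against NOTCH2-KO) and 8 (Q2140* against R2400*). Without the filter it was 2 at 8 h and 2 for genotype by time, and with edgeR 2 at 8 h. With both libraries that stand apart left out it was 15 (KLHL6-KO against WT tumours), 6 and 5 (DKO against KLHL6-KO and NOTCH2-KO) and 7 (interaction). The cause was not tested.

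Leaving out 1 library gave ranges of 2 to 4, 0 to 5 and 1 to 3 members (KLHL6-KO against WT at 3, 8 and 12 h) and 2 to 7 (genotype by time). In the knockout tumours they were 7 to 15 and 7 to 12 (labelled KLHL6-KO and NOTCH2-KO against WT), 2 to 12, 1 to 4 and 1 to 7 (labelled DKO against WT, KLHL6-KO and NOTCH2-KO) and 2 to 7 (interaction). In the mutant tumours they were 4 to 6 and 1 to 3 (S2156A and R2400* against NOTCH2(WT)) and 0 to 5 (S2156A against R2400*). Depth limits members at low counts. Those that did not reach 10 normalised counts in at least 3 libraries were not tested, and 9 members have no row in the knockout tumours. Some tested members had a median under 10, such as IFIT3 (6.95) and EPSTI1 (6.63) in coculture and IFI44L (3.41) in the mutant tumours.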
